A study of Mus musculus with 12 samples.

Results

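The Hox genes of the mouse are the 39 protein-coding homeobox genes whose symbols hold the cluster letter a, b, c or d and a paralog number, and they make up 39 of the 25078 gene rows of the deposited tables. They were taken by that symbol pattern alone, so antisense transcripts and microRNAs of the same clusters are not among them. Hoxa had 11 members, Hoxb 10, Hoxc 9 and Hoxd 9. RNA was sequenced from LSK cells, the Lin-Sca1+ckit+ marrow fraction that holds stem and multipotent progenitor cells, in a study of the DNA damage response in CM leukaemia. The groups were CM IR, cells of Cbfb-MYH11 mice at a preleukemic stage that were given 3.5 Gy and harvested 24 h later; CM NIR, cells of such mice kept through the same incubation with no dose; and WT IR and WT NIR, wild-type cells handled in the same ways. Each group held 3 libraries. The WT libraries are titled control, and their names carry the tag C or WT, while the names of CM libraries carry CHW. The meaning of C and CHW is not given in the sources used here. The library names carry 6 numbers, each on 1 IR and 1 NIR library, which are read here as 6 animals (3 CM, 3 WT). Cells were irradiated after sorting, and IR and NIR cells went through the same kind of incubation, but the labels do not say whether the animals were sorted together. The way the Cbfb-MYH11 allele was switched on, any pooling, the age and sex of the animals and the number of cells per library: none of these is given in the sources used here, and the fusion transcript was not analysed here.

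Hox proteins are DNA-binding homeodomain factors that set position along the body axis in the embryo, and their genes lie in 4 clusters in which the order on the chromosome follows the order of use. In blood the same genes act in stem and progenitor cells, where several of the Hoxa group and Hoxb4 favour self-renewal and are shut down as cells mature. They bind DNA together with TALE cofactors such as MEIS and PBX, are kept on by the KMT2A and menin complex, and are held silent by Polycomb complexes.

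The sequences below belong to the genes on which the account turns: the upstream 250 bases of Hoxa9 and Hoxa5, expressed Hoxa genes that varied between animals together with their neighbours, of Hoxb4, the highest member outside Hoxa, and of Hoxd13, which had no read in any library. They are RefSeq windows of build GRCm38.p6 read 5′ to 3′ on the strand of the gene, with each TAAT, the core letters bound by homeodomains, in capitals on either strand (ATTA on the opposite one). The Hoxa9 window lies at chr6:52227371-52227620 on the minus strand, that of Hoxa5 at chr6:52204588-52204837 on the minus strand, that of Hoxb4 at chr11:96318017-96318266 on the plus strand and that of Hoxd13 at chr2:74667975-74668224 on the plus strand.
Hoxa9: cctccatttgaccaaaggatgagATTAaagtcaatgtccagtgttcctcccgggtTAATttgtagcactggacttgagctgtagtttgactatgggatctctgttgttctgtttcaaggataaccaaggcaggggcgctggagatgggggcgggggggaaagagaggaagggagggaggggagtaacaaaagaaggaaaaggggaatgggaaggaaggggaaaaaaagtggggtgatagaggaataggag
Hoxa5: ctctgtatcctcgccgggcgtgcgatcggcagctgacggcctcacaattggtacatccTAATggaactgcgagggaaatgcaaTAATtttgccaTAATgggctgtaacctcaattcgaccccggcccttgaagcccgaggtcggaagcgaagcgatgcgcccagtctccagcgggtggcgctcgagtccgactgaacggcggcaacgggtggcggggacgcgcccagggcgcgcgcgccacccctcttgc
Hoxb4: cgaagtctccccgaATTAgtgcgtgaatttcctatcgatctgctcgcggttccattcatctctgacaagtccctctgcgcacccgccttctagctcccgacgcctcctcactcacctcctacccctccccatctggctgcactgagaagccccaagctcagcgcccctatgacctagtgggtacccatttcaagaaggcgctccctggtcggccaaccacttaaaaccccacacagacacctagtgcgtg
Hoxd13: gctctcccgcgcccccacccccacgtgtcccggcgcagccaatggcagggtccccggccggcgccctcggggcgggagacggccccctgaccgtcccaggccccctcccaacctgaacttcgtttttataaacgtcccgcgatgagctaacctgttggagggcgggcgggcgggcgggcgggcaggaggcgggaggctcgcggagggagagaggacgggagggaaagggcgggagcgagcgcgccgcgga
The Hoxa5 window held 3 TAAT, that of Hoxa9 2, that of Hoxb4 1 and that of Hoxd13 0.

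The RefSeq table held a window for 22 of the 39 members and 24 windows in all, since Hoxa10 and Hoxd11 have 2 each. TAAT, on either strand, occurred in 18 of the 24 Hox windows and in 54.9% of all 32851 windows. TGTGGT, the core letters bound by the RUNX partners of CBFB, occurred on either strand in 1 of 24 Hox windows (Hoxd10), against 14.0% of all windows. TGATNNAT, letters bound by PBX with a Hox protein, occurred in 4 of 24 against 7.68% of all windows, and its letters can overlap a TAAT. The median GC content was 58.0% in the 9 windows of members tested below and 59.2% in the 15 windows of members that were not. Members with no entry included Hoxa4, Hoxb2, Hoxb3, Hoxb5, Hoxb6, Hoxb7, Hoxb9, Hoxb13, Hoxc5, Hoxc6, Hoxc8, Hoxc9, Hoxc10, Hoxc11, Hoxc12 and Hoxc13.

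A pair of microRNAs lies inside the transcribed parts of the clusters and is printed because both sit beside the member with the most reads in their cluster. In the RefSeq table the miR-196b-5p sequence is at chr6:52230129-52230150 on the minus strand, between Hoxa9 and Hoxa10, and that of miR-10a-5p at chr11:96317186-96317208 on the plus strand, between Hoxb5 and Hoxb4. Both are known to target Hox transcripts, and capitals mark the seed, bases 2 to 8.
miR-196b-5p: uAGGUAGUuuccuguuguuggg
miR-10a-5p: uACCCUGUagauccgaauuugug
Their host loci held at most 5 reads a library for Mir196b and 11 for Mir10a in these total RNA libraries, and mature microRNAs were not measured.

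Library depth ran between 68490566 (WT NIR 1) and 110795261 (WT IR 3) gene counts, and Hoxa9 had 992 to 3860 reads in a library. Kit and Ly6a, the genes of the sort markers ckit and Sca1, were present in every library, at 148 to 284 and 42.0 to 457 CPM (gene counts scaled to the library total). Of the markers of mature lineages that the sort removes, Cd3e, Ms4a1 and Ly6g stayed under 0.4 CPM, while Itgam, the myeloid integrin, reached 118 to 588 CPM. The NIR library of CM animal 3 stood apart. Its deviation from its group mean correlated at 0.13 with that of the IR library of the same animal and at 0.69 with that of the IR library of CM animal 1, so an exchanged label and a difference between the libraries cannot be told apart for CM animal 3. The main results that rest on it are given with and without both libraries of that animal, a choice made after seeing the data. In bulk RNA, fewer cells of a type and less RNA per cell cannot be told apart.

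Levels are given first as RPKM, the deposited reads per kilobase of exon scaled to library size, since only this scale allows genes to be compared with each other. With a median of at least 1 RPKM over the 12 libraries counted as expressed and 0.1 to under 1 as low, 6 members were expressed, 6 were low and 27 were near 0. The expressed members were Hoxa9, Hoxa7, Hoxb4, Hoxa5, Hoxa6 and Hoxa4, and the low ones included Hoxa10, Hoxa3, Hoxb3, Hoxb2 and Hoxa2. Among the 27 near 0, the highest value in any library was 0.291 RPKM, for Hoxb5 in CM NIR animal 2. Hoxc11, Hoxd3 and Hoxd13 had 0 reads in all 12 libraries, which allows levels of up to 0.00319, 0.00101 and 0.00114 RPKM (3 counts over the summed libraries, counting error only).

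**Figure D1:**
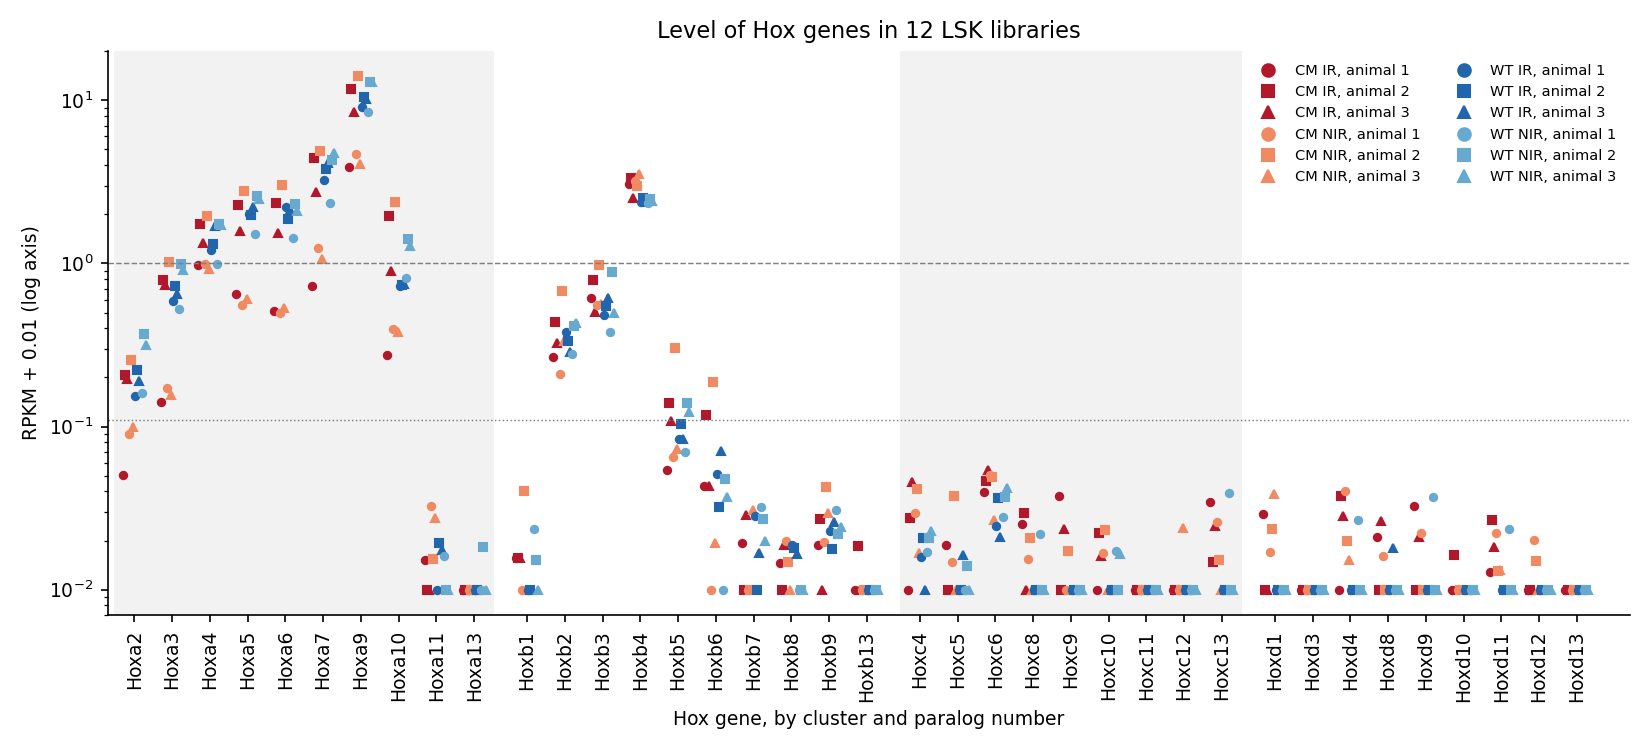
Level of the Hox genes described here in each library, as RPKM + 0.01 on a log axis, by cluster (shaded blocks) and paralog number; colours give the group, symbols the animal, and the broken and dotted lines 1 and 0.1 RPKM. Hoxa2 to Hoxa10 and Hoxb2 to Hoxb4 carry most of the signal, and Hoxc and Hoxd lie at the bottom in all 12 libraries.

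By cluster, Hoxa supplied 65.0 to 88.4% of the summed Hox RPKM of a library and Hoxb 11.4 to 34.5%. In the coordinates of the deposited tables, build mm10, Hoxa2 to Hoxa13 lie at chr6:52162417-52260880. All 11 members of Hoxa together held 53853 of the Hox reads, and Hoxb (chr11:96194316-96368253) held 10470. Hoxc (chr15:102921131-103036852) held 129 reads in all and never more than 0.85% of the sum, and Hoxd (chr2:74668225-74765142) held 76 and never more than 0.567%. All 9 members of Hoxc and all 9 of Hoxd were near 0.

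Within Hoxa the signal reached as far as Hoxa10 and stopped there. Hoxa10 had 3180 reads over the 12 libraries, while its next neighbours toward the end that is used last in the embryo, Hoxa11 and Hoxa13, had 14 and 1. The peak lay at Hoxa9 (31015 reads, median 9.67 RPKM), which was the highest Hox gene in every one of the 12 libraries and made up 31.2 to 42.5% of the summed Hox RPKM. Levels fell on both sides of it, with medians of 3.53 RPKM for Hoxa7, 1.97 for Hoxa6, 1.98 for Hoxa5 and 1.32 for Hoxa4 on one side and 0.768 for Hoxa10 on the other.

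Within Hoxb the signal was a narrow stretch around Hoxb4, a factor known for expanding blood stem cells when it is overexpressed. Its median was 2.52 RPKM, against 0.55 for Hoxb3, 0.324 for Hoxb2 and 0.084 for Hoxb5. Hoxb6 to Hoxb9 had medians between 0.00462 and 0.0333 RPKM, and Hoxb1 and Hoxb13 had 11 and 1 reads in all. Ordered by paralog group, Hoxa led in groups 3, 5, 6, 7, 9 and 10, Hoxb led in group 4 (Hoxb4 2.52 against Hoxa4 1.32 RPKM) and in group 2 (Hoxb2 0.324 against Hoxa2 0.183 RPKM). Group 8, which has no Hoxa member, and groups 11 to 13 had no member above a median of 0.00534 RPKM.

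The few Hoxd reads were unevenly spread. Summed Hoxd was 0.0557, 0.0502 and 0.0541 RPKM in CM IR animals 1, 2 and 3, 0.0784, 0.0312 and 0.0368 RPKM in CM NIR, 0.0, 0.0 and 0.00806 RPKM in WT IR and 0.0569, 0.0 and 0.0 RPKM in WT NIR. All 6 CM libraries thus held Hoxd reads, against 2 of 6 WT libraries, and the ranges overlapped through WT NIR animal 1. Summed Hoxc ran from 0.0371 to 0.135 RPKM in CM and from 0.0173 to 0.0732 RPKM in WT, where WT NIR animal 1 was again highest. Hoxd rests on 76 reads in all, and the share of other genes at such low counts with this arrangement was not counted. No Hoxd member passed the filter on low counts, so none was tested in the main fits. Without that filter, edgeR gave CM against WT an adjusted p of 0.205 for Hoxd1 over animals. For Hoxd11 after irradiation it was 0.309 in edgeR without the filter and 0.279 in DESeq2, which used no such filter. Each was higher in CM, had the smallest adjusted p of any member in its fit, and was not called.

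After that filter 13 members could be tested, and 12 of them are described: Hoxa2 to Hoxa7, Hoxa9, Hoxa10, and Hoxb2 to Hoxb5. The other 26 did not pass it, and none of them had more than 20 reads in a library (Hoxb6). The values of these 12 in each library follow in RPKM, always for animals 1, 2 and 3 of a group.

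Hoxa9 drives self-renewal of stem and progenitor cells and is among the genes most often raised in acute myeloid leukaemia. It had 3.89, 11.7 and 8.49 RPKM in CM IR, 4.66, 14.0 and 4.07 RPKM in CM NIR, 9.14, 10.4 and 10.2 RPKM in WT IR and 8.44, 12.9 and 12.9 RPKM in WT NIR. CM IR 1, CM NIR 1 and CM NIR 3 were the lowest of all 12, CM NIR 2 was the highest, and CM and WT overlapped. Hoxa7, its neighbour and like it a known target of KMT2A fusion proteins, had 0.713, 4.45 and 2.72 RPKM in CM IR, 1.24, 4.85 and 1.05 RPKM in CM NIR, 3.25, 3.8 and 4.12 RPKM in WT IR and 2.32, 4.29 and 4.74 RPKM in WT NIR. The same 3 CM libraries were lowest and the groups again overlapped. Hoxa10, a regulator of stem cell and myeloid growth, had 0.265, 1.94 and 0.887 RPKM in CM IR, 0.385, 2.36 and 0.371 RPKM in CM NIR, 0.714, 0.723 and 0.737 RPKM in WT IR and 0.800, 1.40 and 1.27 RPKM in WT NIR. Here CM animal 2 was above every WT library while the same 3 CM libraries were below every WT library.

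The middle of the cluster followed the same libraries. Hoxa5, which acts in lung and skeletal patterning, had 0.640, 2.28 and 1.58 RPKM in CM IR, 0.547, 2.77 and 0.593 RPKM in CM NIR, 1.99, 1.96 and 2.20 RPKM in WT IR and 1.5, 2.58 and 2.46 RPKM in WT NIR. Hoxa6, which lies next to it, had 0.501, 2.34 and 1.52 RPKM in CM IR, 0.484, 3.01 and 0.523 RPKM in CM NIR, 2.20, 1.85 and 2.13 RPKM in WT IR and 1.42, 2.31 and 2.08 RPKM in WT NIR. Both genes were lowest in CM IR 1, CM NIR 1 and CM NIR 3 and highest in CM NIR 2, so CM spanned the whole WT range. Hoxa4 had 0.964, 1.74 and 1.33 RPKM in CM IR, 0.976, 1.93 and 0.910 RPKM in CM NIR, 1.2, 1.3 and 1.68 RPKM in WT IR and 0.988, 1.74 and 1.72 RPKM in WT NIR. It varied least of the Hoxa genes, its 3 lowest libraries were the same, and the lowest WT library (0.988) was next to them.

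Hoxa3, needed for thymus and parathyroid formation, had 0.131, 0.779 and 0.732 RPKM in CM IR, 0.163, 1.01 and 0.146 RPKM in CM NIR, 0.576, 0.712 and 0.636 RPKM in WT IR and 0.517, 0.986 and 0.906 RPKM in WT NIR. Hoxa2, a hindbrain and pharyngeal arch patterning gene, had 0.0402, 0.197 and 0.185 RPKM in CM IR, 0.0805, 0.247 and 0.0896 RPKM in CM NIR, 0.144, 0.213 and 0.181 RPKM in WT IR and 0.151, 0.358 and 0.307 RPKM in WT NIR. In both, the same 3 CM libraries were the lowest of the 12. The span of Hoxa3 contains Hoxa4, Hoxa5 and Hoxa6 on the same strand, so reads could be shared among them, and the rule used for such reads is not given in the sources used here.

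Expressed as a percentage of the WT NIR mean of the gene, the median over the 8 genes Hoxa2 to Hoxa10 was 24.4, 111 and 75.7% in CM IR animals 1, 2 and 3, 31.2, 128 and 29.9% in CM NIR, 80.5, 89.3 and 95.2% in WT IR and 67.6, 119 and 113% in WT NIR. CM animal 1 was low with and without irradiation, CM animal 2 was high in both, and CM animal 3 was low only in its NIR library. All 8 genes had the same 3 lowest libraries (CM IR 1, CM NIR 1 and CM NIR 3), as did 14.1% (2063) of the 14599 genes tested. The SD of log2 CPM over 6 libraries was 0.51 to 1.47 in CM and 0.25 to 0.47 in WT for these 8 genes, while the median over all tested genes was 0.28 in CM and 0.18 in WT. The 8 genes lie side by side and were not independent of one another.

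**Figure D2:**
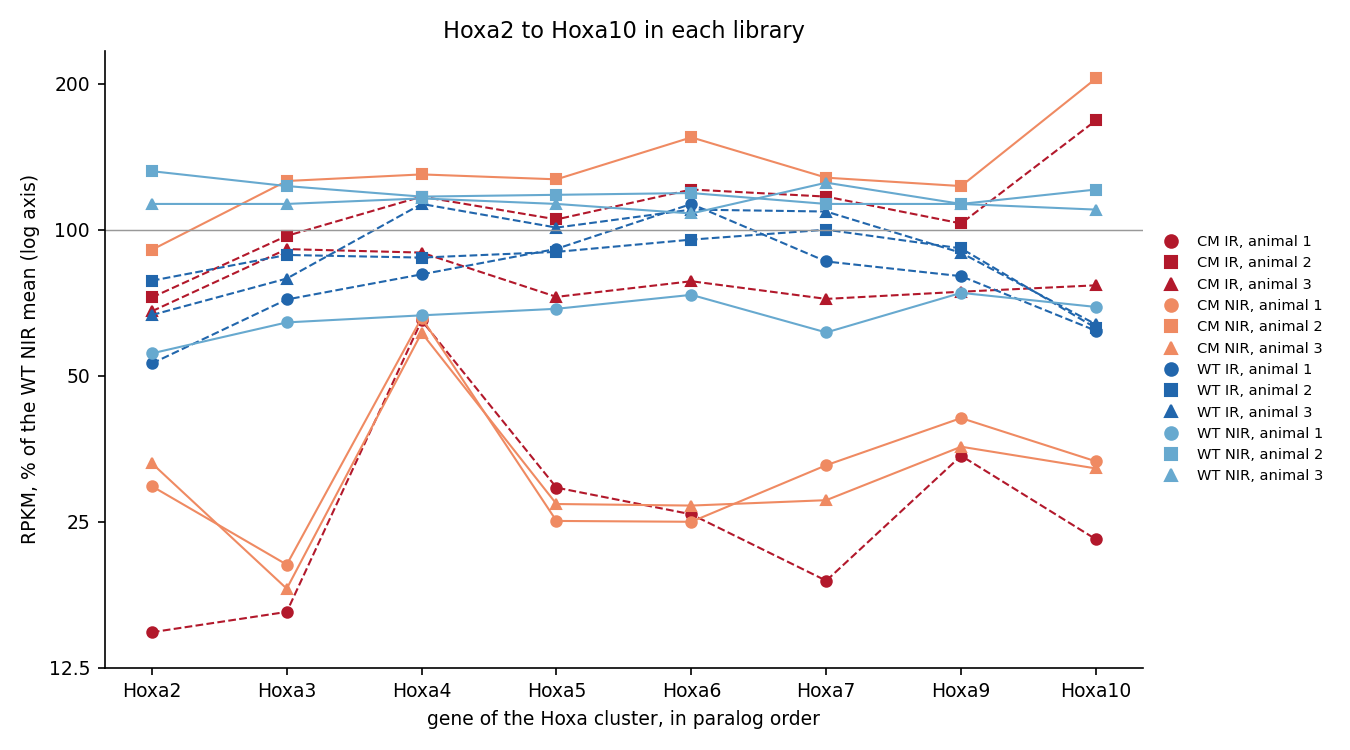
The 8 genes Hoxa2 to Hoxa10 in paralog order, as RPKM in percent of the WT NIR mean of the gene on a log axis; each line is 1 library, colours give the group, symbols the animal, and broken lines the IR libraries. CM IR 1, CM NIR 1 and CM NIR 3 run together below the others from Hoxa2 to Hoxa10, with medians of 24.4, 31.2 and 29.9%.

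Hoxb4 was the steadiest member. It had 3.06, 3.33 and 2.52 RPKM in CM IR, 3.17, 2.96 and 3.51 RPKM in CM NIR, 2.38, 2.52 and 2.38 RPKM in WT IR and 2.33, 2.49 and 2.39 RPKM in WT NIR. The CM NIR libraries all lay above the WT NIR libraries, and the IR groups met at 2.52 RPKM. The share of all genes with such a gap between the NIR groups was not counted. Its SD of log2 CPM was 0.16 in CM and 0.04 in WT, the smallest among the 13, and its biological coefficient of variation of 0.175 was at the 40.1 percentile of all tested genes, against 75.0 to 94.9 for the Hoxa genes. With Hoxb4 steady and Hoxa9 variable, their ratio of RPKM was 0.785, 0.283 and 0.297 in CM IR, 0.680, 0.211 and 0.861 in CM NIR, 0.260, 0.242 and 0.233 in WT IR and 0.276, 0.194 and 0.186 in WT NIR.

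Hoxb3, which borders Hoxb4, had 0.601, 0.777 and 0.491 RPKM in CM IR, 0.548, 0.973 and 0.552 RPKM in CM NIR, 0.475, 0.540 and 0.601 RPKM in WT IR and 0.372, 0.870 and 0.486 RPKM in WT NIR. Hoxb2, a hindbrain patterning gene, had 0.256, 0.429 and 0.316 RPKM in CM IR, 0.199, 0.669 and 0.325 RPKM in CM NIR, 0.371, 0.323 and 0.278 RPKM in WT IR and 0.269, 0.403 and 0.420 RPKM in WT NIR. Hoxb5, a marker of long-term stem cells in the mouse, had 0.0439, 0.129 and 0.0988 RPKM in CM IR, 0.0548, 0.291 and 0.0629 RPKM in CM NIR, 0.0736, 0.0943 and 0.0734 RPKM in WT IR and 0.0596, 0.130 and 0.113 RPKM in WT NIR. All 3 were highest in CM NIR 2 and their groups overlapped. Hoxb2, Hoxb3 and Hoxb5 overlap genes on the opposite strand (Hoxb3os or Hoxb5os), as do Hoxa3, Hoxa5 and Hoxa6. The strand setting of the counting is not given in the sources used here. Hoxb3os had at most 37 reads a library and Hoxb5os at most 36. Hoxb2 itself had 25 to 87, Hoxb3 98 to 301 and Hoxb5 7 to 44, so shared reads could matter for Hoxb2 and Hoxb5.

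The design asks first whether the preleukemic genotype changes LSK expression. To give each animal 1 value, the IR and NIR counts of an animal were summed. In CPM of these sums, Hoxb4 had 8.14, 8.19 and 7.82 in the CM animals, against 6.12, 6.49 and 6.18 in the WT animals, or 8.05 ± 0.20 against 6.26 ± 0.198 (SD, n = 3 each). It was the only one of the 13 tested members whose animals did not overlap, a property that 9.75% of the 15036 genes tested showed in the same direction, and its log2 fold change of 0.36 ± 0.13 (SE, 95% interval 0.04 to 0.68) had an unadjusted p of 0.0323 and an adjusted p of 0.3 in edgeR's quasi-likelihood test. The adjusted p of Hoxb4 was 0.0506 by DESeq2 and 0.264 by limma-voom (range over all alternatives 0.0506 to 0.803). None of the 13 members passed an adjusted p of 0.05 in edgeR, where 0.02% of all genes did, and 1 of 13 had an unadjusted p under 0.05. DESeq2 and limma-voom called none either.

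Hoxa9 averaged 25.7 ± 14.5 CPM in the CM animals and 34.5 ± 4.94 CPM in the WT animals (SD, n = 3 each), with single values of 14.0, 42.0 and 21.2 against 28.8, 37.9 and 36.8. CM animals 1 and 3 lay below all WT animals and CM animal 2 above them, and the edgeR log2 fold change of -0.42 ± 0.39 (SE, interval -1.36 to 0.51) had an adjusted p of 0.68. Over Hoxa2 to Hoxa10 the log2 fold changes were negative for 7 of 8 genes, with a median of -0.51, against 0.02 over all tested genes. The 4 tested Hoxb genes were all positive, with a median of 0.29. Without CM animal 3 the median of Hoxa2 to Hoxa10 was -0.38, negative for 7 of 8, Hoxa9 was at -0.30 and Hoxb4 at 0.38, and none was called. Without CM animal 2, Hoxa9 had a log2 fold change of -0.97 and an adjusted p of 0.0522 in edgeR (range over all alternatives 0.0522 to 0.998), and 1598 of all genes were called in place of 3.

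In the NIR libraries alone, CM against WT gave no call among the 13 members in edgeR, where 1.62% of the 14599 genes tested were called, and 1 member (Hoxb4) had an unadjusted p under 0.05. Hoxb4 was at 0.42 ± 0.14 on the log2 scale (SE), and its adjusted p was 0.163 in edgeR. DESeq2 gave it an adjusted p of 0.0396 and limma-voom 0.174 (range over all alternatives 0.0396 to 0.428). In that comparison DESeq2 called 944 of 20725 genes. The log2 fold change of Hoxb4 was 0.36 without both libraries of CM animal 3. Hoxa2 to Hoxa10 were negative for 8 of 8 genes, with a median of -0.62 and a range of -0.96 to -0.15, against 0.02 over all tested genes, and none was called. Without both libraries of CM animal 3 that median was -0.30, negative for 7 of 8. The widest interval of the 6 expressed genes was that of Hoxa6, -2.06 to 1.01.

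Which CM animals were included decided the size of the Hoxa values. Without CM NIR animal 2, Hoxa5 was at -1.92 with an adjusted p of 0.0443 in edgeR (range over all alternatives 0.0443 to 0.918), the only member called in any edgeR fit that left out a library, and Hoxa9 was at -1.37 with an adjusted p of 0.0629. Over all genes, such fits of CM against WT without irradiation called 4 to 914, against 237 with all libraries. Without both libraries of CM animal 3, Hoxa5 was at -0.39 and Hoxa9 at -0.29.

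After irradiation, CM against WT also gave no call among the 13 members in edgeR, against 0.664% of all genes tested, with no member at an unadjusted p under 0.05 and none called by DESeq2 or limma-voom. Hoxb4 was at 0.29 ± 0.14 (SE, interval -0.01 to 0.59, adjusted p 0.442 in edgeR), and at 0.40 without both libraries of CM animal 3. Hoxa2 to Hoxa10 had a median of -0.32, negative for 7 of 8, with Hoxa7 at -0.50 ± 0.67 and Hoxa10 at 0.51 ± 0.77. Without both libraries of CM animal 3 the median was -0.48, negative for 7 of 8, with Hoxa7 at -0.52 and Hoxa10 at 0.61. The 2 CM against WT comparisons use different libraries of the same animals.

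**Figure D3:**
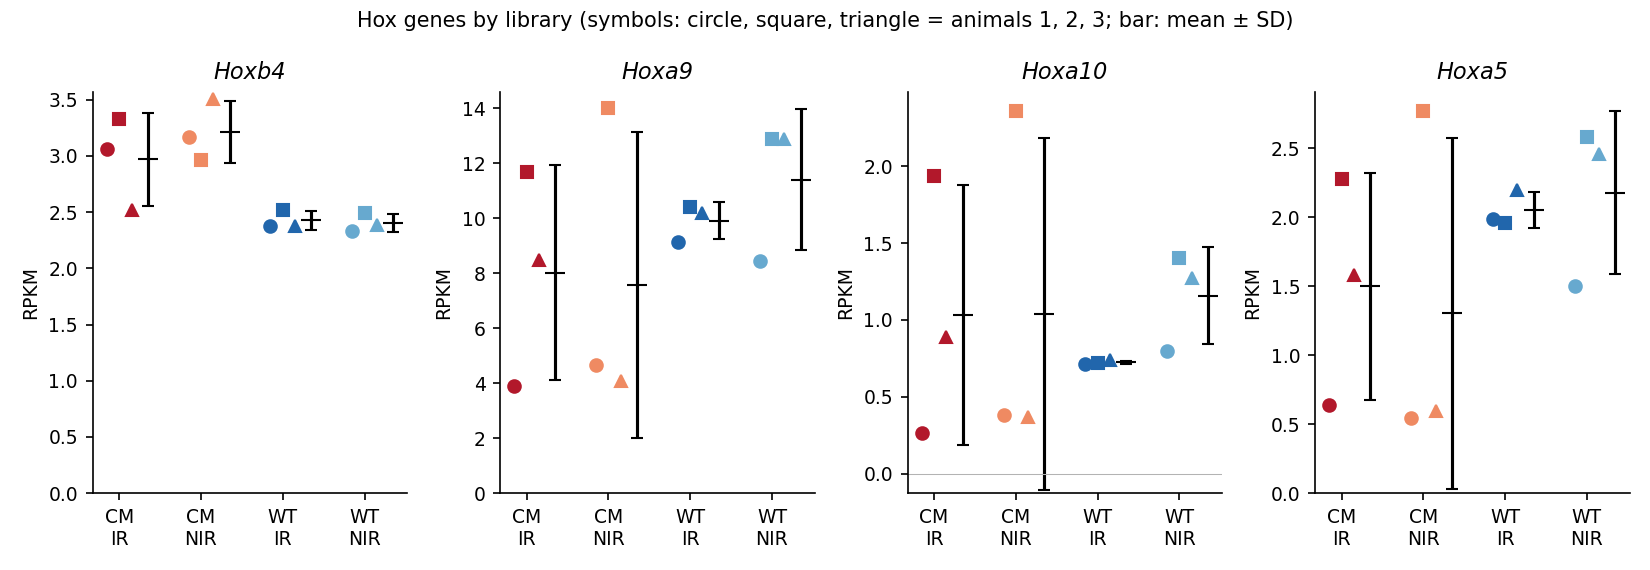
RPKM of Hoxb4, Hoxa9, Hoxa10 and Hoxa5 in each library, by group; symbols give the animal and bars the mean ± SD of 3 libraries, which for Hoxa10 in CM NIR reaches below 0. Hoxb4 is tight and higher in the CM NIR libraries (2.96 to 3.51) than in the WT NIR libraries (2.33 to 2.49), while the CM libraries of the Hoxa genes span more than the WT libraries. How many of all genes show such a gap between the NIR groups was not counted.

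**Figure D4:**
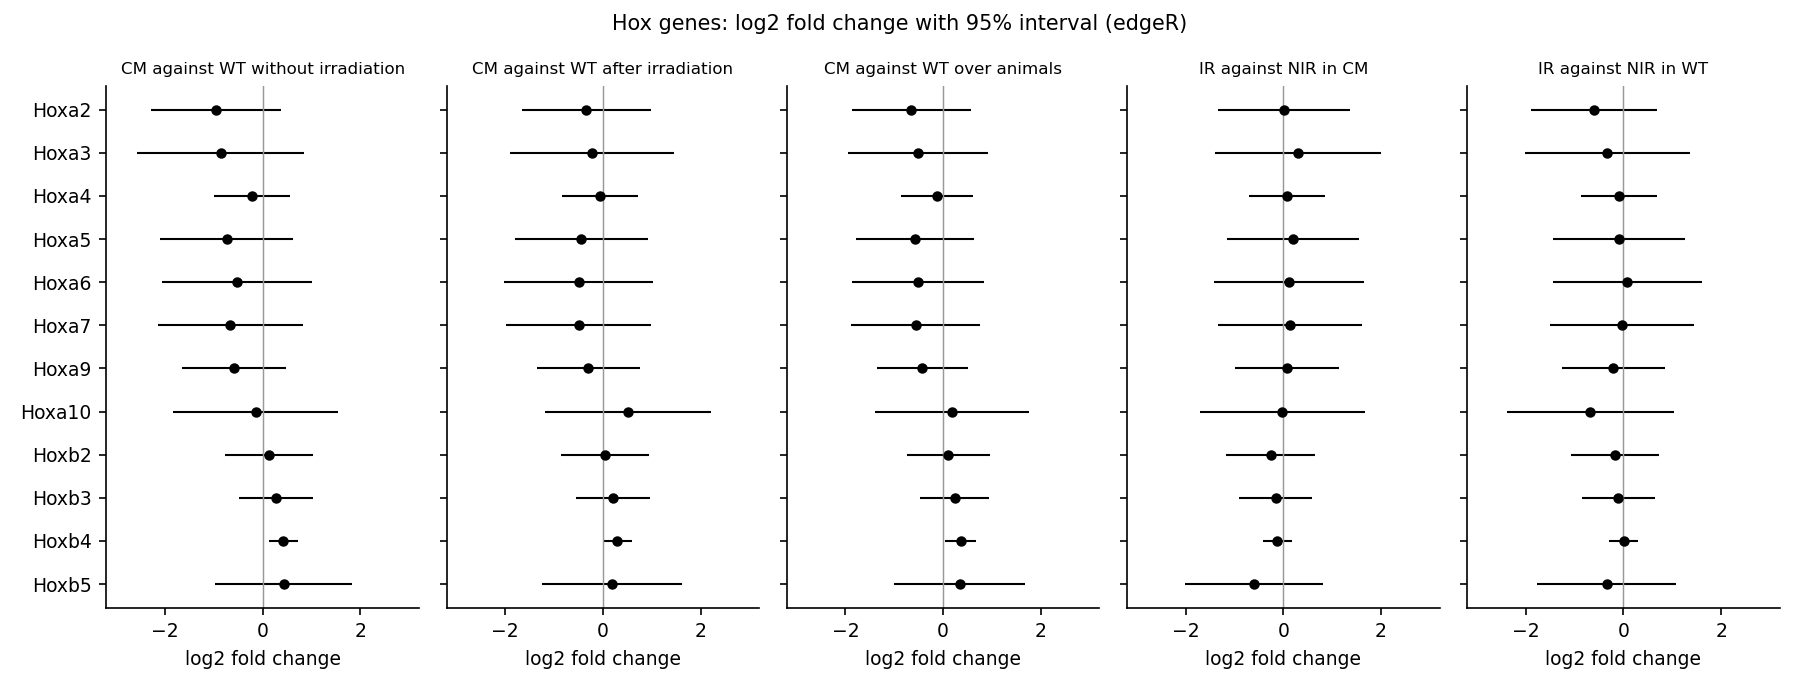
Log2 fold change with its 95% interval for 12 tested members in 5 comparisons (edgeR). The intervals of Hoxb4 are the narrowest and lie above 0 for CM against WT without irradiation and over animals, before adjustment over all genes; all Hoxa intervals span 0.

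The design asks next what irradiation does after 24 h. In WT cells, IR against NIR called none of the 13 members in edgeR, DESeq2 or limma-voom (adjusted p of 1 for each in edgeR), while edgeR called 0.116% of all genes tested, and no member had an unadjusted p under 0.05. Hoxb4 was at a log2 fold change of 0.01 ± 0.14 (SE, interval -0.29 to 0.31), and the differences within WT animals 1, 2 and 3 were 0.01, 0.02 and -0.01. Hoxa9 was at -0.20 ± 0.48, with 0.10, -0.30 and -0.34 within the animals. The lowest value was that of Hoxa10, at -0.68 ± 0.77, and it was lower after irradiation in all 3 WT animals, at -0.18, -0.94 and -0.78 on the log2 scale. With the animal as a block, which pairs the 2 libraries of an animal, Hoxa10 was at -0.64 ± 0.34 with an adjusted p of 0.484 in edgeR.

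In CM cells, IR against NIR called none of the 13 members in edgeR, DESeq2 or limma-voom (adjusted p of 1 for each in edgeR), against 0.00685% of all genes in edgeR, and none had an unadjusted p under 0.05. Hoxa9 was at 0.08 ± 0.48 and Hoxb4 at -0.12 ± 0.14. The values within animals show 1 animal set apart. Hoxa9 differed by -0.28, -0.26 and 1.07 within CM animals 1, 2 and 3, Hoxa10 by -0.54, -0.29 and 1.25, and Hoxa3 by -0.32, -0.38 and 2.26. CM animal 3, whose NIR library stood apart above, was the only CM animal with higher Hoxa9, Hoxa10 and Hoxa3 after irradiation, and Hoxb4 was at -0.47 there, against -0.07 and 0.16 in CM animals 1 and 2. Without both of its libraries the values of the comparison were 0.05 for Hoxb4, -0.25 for Hoxa9, -0.31 for Hoxa10 and -0.36 for Hoxa3. The median over Hoxa2 to Hoxa10 was then -0.28, negative for 8 of 8, against 0.10 and 1 of 8 with all libraries, and none was called either way. Whether the labels of CM animal 3 pair its own libraries was not tested.

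The difference of the IR responses between genotypes, CM minus WT, was called for no member and for 0% of all genes tested in edgeR. No member and 106 of all genes had an unadjusted p under 0.05, and DESeq2 and limma-voom called none of either. It was 0.28 ± 0.67 for Hoxa9, 0.66 ± 1.08 for Hoxa10 and -0.13 ± 0.19 for Hoxb4 (log2, SE). For Hoxb4 the interval of -0.55 to 0.29 bounds the difference, and that of Hoxa10, -1.74 to 3.06, is far wider. Without both libraries of CM animal 3 the difference was -0.05 for Hoxa9, 0.36 for Hoxa10 and 0.04 for Hoxb4.

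The proteins that work with Hox factors were read from the same fits. Meis1, the cofactor that acts with Hoxa9 in leukaemia, had 40.0, 85.4 and 72.4 CPM in CM IR, 42.0, 106 and 42.4 CPM in CM NIR, 69.3, 73.0 and 79.9 CPM in WT IR and 61.2, 79.3 and 74.9 CPM in WT NIR. It was lowest in the same 3 libraries as Hoxa2 to Hoxa10 and highest in CM NIR 2, and CM against WT without irradiation was at -0.18 ± 0.36 (log2, SE, adjusted p 0.846 in edgeR). Of the 9 tested TALE cofactor genes, 1 was called by edgeR in that comparison, higher in CM, and none in the other comparisons.

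None of 18 tested activator genes (the KMT2A, menin and DOT1L complexes) and none of 29 Polycomb genes was called in any of the 6 comparisons. Their median log2 fold changes in CM against WT without irradiation were -0.05 and -0.07. Cdx1, Cdx2 and Cdx4, homeobox genes known to switch on Hox clusters, were all under 0.11 CPM in every library. Of 20 genes known to act in Hox-driven programmes in blood, 10 were positive and 10 negative in that comparison and none was called. Mef2c had the smallest p, at -0.75 ± 0.18 with an adjusted p of 0.07 in edgeR. Of these 20 genes, 10 had CM IR 1, CM NIR 1 and CM NIR 3 as their 3 lowest libraries and 4 as their 3 highest. Among all tested genes, 14.1% were lowest and 14.4% highest in those libraries.

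The libraries with low Hoxa also differed in cell-type markers. Mecom, a stem cell factor, had 0.841, 17 and 10.4 CPM in CM IR, 1.24, 24.6 and 1.04 CPM in CM NIR, 6.92, 8.57 and 9.82 CPM in WT IR and 5.18, 11.7 and 12.5 CPM in WT NIR. Hlf, another stem cell factor, had 18.2, 94.7 and 60.7 CPM in CM IR, 20, 127 and 18.8 CPM in CM NIR, 48.5, 64.2 and 59.1 CPM in WT IR and 31.7, 85.1 and 78.7 CPM in WT NIR. CM IR 1, CM NIR 1 and CM NIR 3, the 3 libraries lowest in Hoxa2 to Hoxa10, were lowest in both. Of the 11 genes of the stem and multipotent list, 5 (among them Mecom, Hlf, Fgd5 and Mycn) were lowest in those 3 libraries and 2 (Gata2 and Pdzk1ip1) were highest in them, against 14.1% of all tested genes lowest and 14.4% highest there. The summed level of the list was 237 to 350 CPM in CM and 235 to 287 CPM in WT.

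Of the 7 mast cell and basophil genes, 4 (Cpa3, Fcer1a, Ms4a2 and Cma1) were highest in those 3 libraries, an arrangement that 14.4% of all tested genes showed. Prss34, a basophil protease, differed from these, at 1.35 to 8.95 CPM in the 6 CM libraries and 12.5 to 61.9 CPM in the 6 WT libraries. The genotypes did not overlap, but these are 3 animals each, and the share of all genes with such a gap was not counted. The log2 fold change of Prss34 in CM against WT without irradiation was -3.10 ± 0.80 (SE, adjusted p 0.0888 in edgeR), so it was not called. The summed level of the list was 1260, 232 and 813 CPM in CM IR, 1110, 187 and 1520 CPM in CM NIR, 306, 170 and 219 CPM in WT IR and 466, 149 and 184 CPM in WT NIR. It was high in CM animals 1 and 3 and lower in CM animal 2, within the WT range. No gene of either list was at 0 in all libraries. Tpsb2, a mast cell tryptase, was called in CM against WT without irradiation (log2 fold change 3.93, adjusted p 0.0201 in edgeR). Its WT NIR values were near the floor, at 0.0721, 0.195 and 0.0384 CPM. Also called there by edgeR were Pdzk1ip1 (2.04, adjusted p 0.0306) and, from the myeloid progenitor list, the neutrophil elastase gene Elane (-1.39, adjusted p 0.0434). From the stroma list, the leptin receptor gene Lepr was called (1.68, adjusted p 0.029). No gene of these lists was called after irradiation or over animals. The smallest adjusted p there was 0.0654 in edgeR, for the myeloid progenitor list after irradiation. 

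Myeloid and sort markers moved in the same 3 libraries. Csf1r, the receptor for macrophage colony-stimulating factor, had 766, 148 and 424 CPM in CM IR, 675, 118 and 661 CPM in CM NIR, 305, 205 and 189 CPM in WT IR and 417, 168 and 151 CPM in WT NIR. Of the 9 tested genes of the myeloid progenitor list, 3 (Csf1r, the Fc receptor gene Fcgr3 and the transcription factor gene Irf8) were highest in those 3 libraries and none was lowest, and of the 5 tested mature-lineage markers Itgam was highest there. Among the 4 tested sort markers, Ly6a (323, 49.7 and 144 CPM in CM IR, 306, 46.7 and 457 CPM in CM NIR, 76.9, 66.7 and 44.7 CPM in WT IR, and 140, 69.0 and 42.0 CPM in WT NIR) and the leukocyte gene Ptprc were highest there and the progenitor gene Cd34 was lowest, at 230 to 247 CPM. None of these 7 genes was called in CM against WT without irradiation, where Ly6a was at 1.69 ± 0.81 on the log2 scale, with an adjusted p of 0.371 in edgeR. The summed level of the myeloid progenitor list was 3400 to 4790 CPM in CM and 3870 to 6170 CPM in WT, and that of the sort markers 1250 to 1380 CPM in CM and 957 to 1410 CPM in WT. The part of all these markers in the Hox values, including those of Hoxb4, was not tested.

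**Figure D5:**
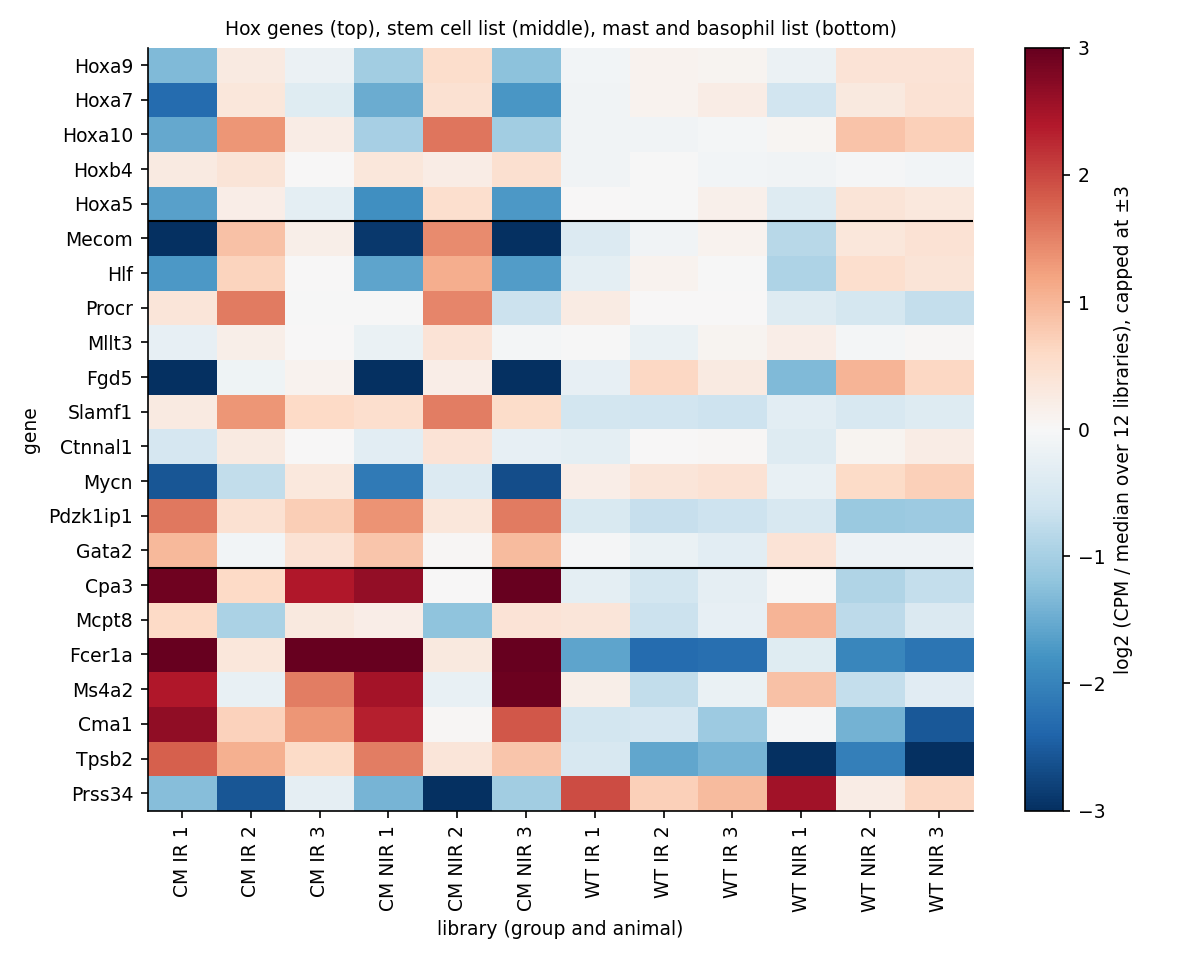
Colour scale of log2 CPM over the median of the 12 libraries, capped at ±3, for 5 Hox genes, 10 genes of the stem and multipotent list and the 7 genes of the mast cell and basophil list, with libraries as columns. CM IR 1, CM NIR 1 and CM NIR 3 are low in Hoxa9, Hoxa7, Hoxa10, Hoxa5, Mecom, Hlf, Fgd5 and Mycn and high in Cpa3, Fcer1a, Ms4a2 and Cma1, while Hoxb4 keeps nearly 1 colour.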

How the data were processed

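Per the labels' protocols, RNA was extracted with the AllPrep kit and ribosomal RNA was depleted (RiboErase) before stranded KAPA libraries were made. Build mm10 is named in the submitters' processing notes, as are HTSeq 0.6.1p1, TopHat2 and bcl2fastq 2.18.0.12; what each did, the strand setting and the annotation: none is given in the sources used here. The authors deposited whole-number counts per gene and RPKM for the same 12 libraries and 25078 genes, of which 4353 had 0 counts in all 12.

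RPKM were used as deposited for levels. Counts were tested with edgeR 4.0.16 (quasi-likelihood, TMM, filterByExpr with a minimum count of 10 and a minimum total of 15, 1 mean per group over 12 libraries) and Benjamini-Hochberg adjustment over all genes tested, at 0.05, in 6 comparisons; over animals, the summed counts of each animal were tested. Alternatives used DESeq2 1.42.0, limma 3.58.1 (voom, or log2(RPKM + 0.1) and log2(RPKM + 1)), RLE scaling, no filter, a term for the series of library numbers, the animal as block, and each library left out. No 2 libraries agreed within sampling noise (lowest chi-square over degrees of freedom 14.7). The library names in the labels give each NIR library the number of 1 IR library of the same genotype, read as 1 animal, and the deviations of these pairs correlated at 0.79, 0.84 and 0.13 in CM and 0.67, 0.50 and 0.41 in WT, so pairs were taken by the shared number; for CM animal 3 an exchanged label and a difference between its libraries cannot be told apart. Nothing says whether the animals were littermates. The p-values over animals measure the spread between these animals. Those of the other comparisons use the spread between libraries within groups, pooled over all 12. Without the block, the IR and NIR library of an animal count there as independent. The scripts were tested on simulated data.

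Values in every library were given for expressed members, for the 4 members with the smallest p in each comparison and for those whose animals do not overlap. Of the tested members 1 is not reported here, and neither are some genes of the lists. The members, the 15 gene lists and the rules were chosen with earlier results of these data known. Promoter and microRNA sequences are from RefSeq (GRCm38.p6).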

Additional observations from a re-analysis of the deposited data

How the results depend on the processing

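Of 96 counts of called Hox members under the alternatives, 94 equalled that of the chosen fit. In CM against WT without irradiation DESeq2 called 1 member (Hoxb4) in place of 0, beside 944 of 20725 genes, and leaving out single libraries gave 0 to 1 member. Leaving out single libraries or animals gave 0 in the other 5 comparisons. With the animal as replicate block, 0 members were called in each comparison (Hoxb4 over animals 0.35, adjusted p 0.449 by limma-voom), so the block changed no call among the members; it moved the count over all genes to 163 in place of 17 for IR against NIR in WT (edgeR) and to 5 in place of 237 for CM against WT without irradiation (limma-voom). Of 384 member fold changes 375 kept sign and side of the threshold and 2 newly passed it (Hoxb4 by DESeq2, Hoxa5 without CM NIR replicate 2). Leaving out single libraries, IR against NIR in CM ranged from -0.96 to 0.61 for Hoxb5, -0.57 to 0.34 for Hoxb2 and -0.34 to 0.17 for Hoxb3, positive without CM NIR replicate 2. Without both libraries of CM animal 3, an alternative chosen after seeing the data, it turned to 0.0527 for Hoxb4, and the difference of the IR responses to 0.0447 for Hoxb4 and -0.0356 for Hoxa3. Leaving out single libraries, that difference ranged from -0.17 (without CM IR replicate 2) to 2.11 for Hoxa10. The causes were not tested.

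Expressed members numbered 6 whichever library was left out, 10 at a median of at least 0.5 RPKM, 3 at 2 RPKM and 10 at 1 CPM, the last 3 by construction of the threshold. Counts over all genes ranged from 4 to 914 in CM against WT without irradiation when 1 library was left out, and from 0 to 1598 over animals. A fit with only the groups compared could not be made for the difference of the IR responses, which uses all 4. Members under 0.1 RPKM are limited by depth.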

Other observations

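Noncoding RNAs of the clusters were sparse. Of 18 such genes in the tables, 5 had no read and all were under 1 CPM in every library. Hotairm1, known from human myeloid cells, was the most abundant per length, at 1.53 to 3.65 RPKM, above the Hoxa2 level. It had 0.745, 0.411 and 0.610 CPM in CM IR, 0.945, 0.394 and 0.864 CPM in CM NIR, 0.446, 0.446 and 0.590 CPM in WT IR and 0.678, 0.521 and 0.756 CPM in WT NIR. Among the CM libraries it was lowest in both of animal 2. None of those tested was called by edgeR in any comparison.

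Of 17 genes in the tables that flank the clusters, 4 were under 1 CPM in every library. Cbx5, a heterochromatin protein gene near Hoxc, had 463 to 813 CPM, and Mtx2, a mitochondrial import gene near Hoxd, 34.8 to 48.9 CPM. Skap2, an adaptor gene near Hoxa, had 98.2 to 168 CPM. Evx1 and Evx2, the even-skipped homeobox genes at the ends of Hoxa and Hoxd, had 0 and 2 reads in all 12 libraries together, and Calcoco2, near Hoxb, had 0. None of 13 tested flanking genes was called in any comparison.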
